A study of Homo sapiens with 6 samples.

Results

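CYP51A1, MSMO1, NSDHL, HSD17B7, SC5D and DHCR7 encode 6 of the enzymes that turn lanosterol, the first ring-shaped sterol of the pathway, into cholesterol. They were taken by gene name from the deposited expression table, which held all 6 of them among its 4101 genes. RNA had been sequenced from SH-SY5Y cells, a human neuroblastoma line of genotype WT, with 3 libraries of a METH-treatment group and 3 libraries of a PBS-treatment group. METH cultures received 2 mM methamphetamine, a psychostimulant, for 24 h and the control cultures received PBS, while the time field of the labels reads Day 0. Both groups grew in MEM and F12 medium with fetal bovine serum. PBS libraries are called by their column numbers (10, 11 and 12) and METH libraries by theirs (1, 2 and 3). A single line is a limited model of dopaminergic neurons, and the labels do not say whether the 3 libraries of a group came from separate cultures, so the p-values measure the spread between these libraries.

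Cholesterol is made from acetyl-CoA through mevalonate, squalene and lanosterol, and the late enzymes remove the extra methyl groups of lanosterol and rearrange the double bonds of the ring and side chain. Most of these enzymes sit in the membrane of the endoplasmic reticulum, where the protein SCAP senses a fall in cholesterol and releases the transcription factor SREBP-2, which binds sterol regulatory elements together with NF-Y and Sp1. Cells of the nervous system rely on their own synthesis because plasma cholesterol does not cross the blood-brain barrier, and sterol precursors that accumulate when a late enzyme is missing cause inherited disorders such as Smith-Lemli-Opitz syndrome (DHCR7), lathosterolosis (SC5D) and CHILD syndrome (NSDHL).

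The promoter sequences are shown because the 6 genes are textbook targets of SREBP-2, and the letters let the reader see which binding motifs lie near each start. Each is the stretch of 250 bases before the first start that RefSeq lists for the gene on build GRCh38.p14. All 6 genes matched, and for 5 of them (all but HSD17B7) this start lies inside the longer span that GENCODE 29 gives the gene. The strand is that of the gene, the sequence runs 5′ to 3′, and capitals mark CCAAT (bound by NF-Y), GGGCGG (the GC box of Sp1) and TGACG (a cAMP response element core), on either strand.
CYP51A1 (chr7:92134478-92134727, minus strand): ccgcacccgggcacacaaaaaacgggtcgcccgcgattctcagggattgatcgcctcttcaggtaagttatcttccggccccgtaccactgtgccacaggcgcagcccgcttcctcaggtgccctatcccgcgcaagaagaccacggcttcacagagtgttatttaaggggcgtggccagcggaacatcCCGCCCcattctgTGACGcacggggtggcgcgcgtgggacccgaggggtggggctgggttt
MSMO1 (chr4:165327419-165327668, plus strand): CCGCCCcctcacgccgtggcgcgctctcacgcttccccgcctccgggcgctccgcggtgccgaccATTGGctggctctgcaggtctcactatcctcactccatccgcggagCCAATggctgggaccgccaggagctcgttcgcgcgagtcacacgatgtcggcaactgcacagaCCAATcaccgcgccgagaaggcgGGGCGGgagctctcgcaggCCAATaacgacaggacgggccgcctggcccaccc
NSDHL (chrX:152830813-152831062, plus strand): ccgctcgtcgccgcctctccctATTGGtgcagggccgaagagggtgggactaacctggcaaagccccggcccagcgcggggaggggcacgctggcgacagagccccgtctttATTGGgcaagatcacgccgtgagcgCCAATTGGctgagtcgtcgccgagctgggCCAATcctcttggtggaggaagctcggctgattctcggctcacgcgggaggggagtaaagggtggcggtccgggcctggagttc
HSD17B7 (chr1:162790452-162790701, plus strand): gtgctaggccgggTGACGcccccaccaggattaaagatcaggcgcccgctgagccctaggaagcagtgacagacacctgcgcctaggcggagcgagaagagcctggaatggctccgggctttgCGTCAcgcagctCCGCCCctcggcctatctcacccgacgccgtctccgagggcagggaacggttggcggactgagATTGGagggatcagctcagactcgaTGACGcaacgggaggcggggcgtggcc
SC5D (chr11:121292521-121292770, plus strand): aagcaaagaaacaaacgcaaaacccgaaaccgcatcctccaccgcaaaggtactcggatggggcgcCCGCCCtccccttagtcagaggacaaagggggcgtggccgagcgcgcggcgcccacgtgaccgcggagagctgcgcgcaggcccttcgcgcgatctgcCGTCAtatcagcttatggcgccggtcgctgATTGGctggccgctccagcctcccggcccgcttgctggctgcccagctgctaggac
DHCR7 (chr11:71448394-71448643, minus strand): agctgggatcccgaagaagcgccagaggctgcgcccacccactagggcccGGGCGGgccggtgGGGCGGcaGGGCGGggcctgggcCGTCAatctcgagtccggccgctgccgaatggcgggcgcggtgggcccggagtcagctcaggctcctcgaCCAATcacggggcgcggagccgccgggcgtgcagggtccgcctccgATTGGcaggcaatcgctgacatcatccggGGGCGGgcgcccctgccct

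None of the 6 stretches held the letters TCACNCCAC, used here as a sterol regulatory element, on either strand. These letters were present in 0.875% of the 27305 promoter stretches of the same length that were searched. They were also absent before the starts of HMGCS1, IDI1 and INSIG1, other genes of sterol synthesis and its control, and SREBF2 had 1 match. Absence of these exact letters from so short a stretch therefore does not show that a gene lacks a sterol regulatory element. CCAAT was found in 5 of the 6 stretches, CYP51A1 being the exception, against 33.0% of all promoters. NSDHL had 5 copies, a pair of which overlap on opposite strands, and MSMO1 had 4, DHCR7 had 2, and HSD17B7 and SC5D had 1 each. The GC box was found in 5 of 6 stretches, all but that of NSDHL, against 42.3% of all promoters, with 4 copies at DHCR7. The TGACG motif was found in 4 of 6, with 3 copies at HSD17B7 and 1 each at CYP51A1, SC5D and DHCR7, against 21.7% of all promoters. A second start is listed for SC5D and for DHCR7. The second stretch of SC5D overlaps the first and held the same CCAAT and TGACG sites, with 1 GC box at another position. The second stretch of DHCR7 held none of the motifs. The matches describe the letters of these stretches only, and binding was not measured.

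**Figure D1:**
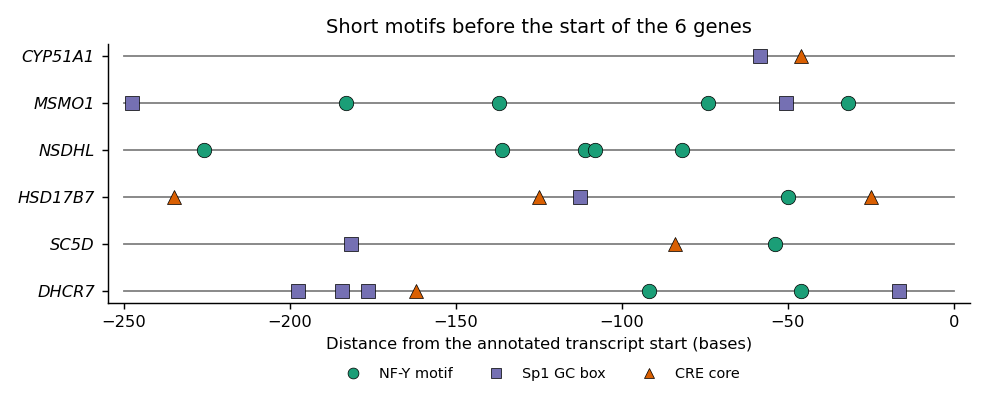
Position of the motif matches in the 250 bases before the annotated start of each gene, with distance from the start in bases on the horizontal axis, circles for CCAAT, squares for GGGCGG and triangles for TGACG on either strand. NSDHL carries 5 circles and no square, DHCR7 carries 4 squares, and HSD17B7 carries 3 triangles.

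Expression is given as CPM, the reads of a gene scaled to a common library total. The headers of the table read FPKM, but the values step by 1 read whatever the gene, so no length correction is in them. From the steps, the libraries held between 85.67 and 110.77 M reads, of which 20027120 to 25449376 lay on the genes of the table. Counts behind the 6 enzymes ran from 639 reads for SC5D to 23364 reads for DHCR7 in a library. The groups were compared with limma on log2(CPM + 0.1), with a threshold of 0.1 on the Benjamini-Hochberg adjusted p. The table lists only genes that the authors had selected on the same libraries. The study's text describes that selection by an adjusted p, but in the table only the unadjusted p was under 0.1 for all 4101 genes. Hence being in the table is no independent evidence and an adjustment within it is lenient. In bulk RNA, a change in the cells' makeup and a change in RNA per cell cannot be told apart.

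With METH, 5 of the 6 enzymes rose, by 1.58-fold for HSD17B7 to 3.25-fold for MSMO1, and the remaining enzyme, NSDHL, was 1.42-fold higher on average without passing the threshold. None fell. The share called higher was 33.3% over all genes of the table. The METH libraries lay above every PBS library for 4 of the 6 enzymes, against 31.0% of all genes. The adjustment was then widened to the 19969 protein-coding genes of the annotation, with genes outside the table taken as not different. With it 2 of the 6 enzymes (CYP51A1 and MSMO1) kept the call, against 5.34% of the 4101 genes of the table. The median log2 fold change was 0.94 over the 6 enzymes and 0.11 over all genes. An exact permutation test of 3 libraries against 3 cannot give a p below 0.1, which is the value for the 4 enzymes whose groups did not overlap.

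CYP51A1 (ENSG00000001630) is the cytochrome P450 that takes the first methyl group off lanosterol, and the step that azole drugs block in fungi. It read 55.3, 55.8 and 53.1 CPM in PBS 10, 11 and 12, and 145, 138 and 100.5 CPM in METH 1, 2 and 3. The PBS libraries were close to each other and every METH library stood well above them, with METH 3 the lowest of its group. The mean went from 54.7 ± 1.42 to 128 ± 23.9 CPM (SD, n = 3), a log2 fold change of 1.20 (SE 0.21, 95% interval 0.74 to 1.67) with a limma adjusted p of 0.00897. Of the enzymes, CYP51A1 had the tightest PBS values, with a coefficient of variation of 2.60%. The gene lies on the minus strand of chromosome 7 (92112151 to 92134803 in GENCODE 29), where it overlaps the protein-coding models AC000120.2 and AC000120.3 on the same strand and the antisense CYP51A1-AS1, and how the authors' counting divided such reads is not given in the sources used here.

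MSMO1 (ENSG00000052802) is the oxidase that attacks the remaining pair of methyl groups next. Its values were 30.4, 21.0 and 25.6 CPM in PBS 10, 11 and 12, and 97.7, 83.2 and 69.5 CPM in METH 1, 2 and 3. The lowest METH library was more than double the highest PBS library. MSMO1 rose from 25.7 ± 4.71 to 83.5 ± 14.1 CPM (SD, n = 3), a log2 fold change of 1.70 (SE 0.22, 95% interval 1.20 to 2.20) with a limma adjusted p of 0.00371. The gene is on the plus strand of chromosome 4 (165327623 to 165343160). CYP51A1 and MSMO1, the first steps after lanosterol among the 6, thus had the smallest adjusted p of the group, and they kept the call in each of the 16 alternative analyses.

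NSDHL (ENSG00000147383), the dehydrogenase that removes the oxidised carbon left by MSMO1, was the enzyme with the smallest difference. PBS 10, 11 and 12 gave 18.0, 24.5 and 28.9 CPM, and METH 1, 2 and 3 gave 44.9, 38.3 and 21.5 CPM. METH 1 and METH 2 lay above all PBS libraries while METH 3 lay inside their range. The means were 23.8 ± 5.49 and 34.9 ± 12.1 CPM (SD, n = 3), the log2 fold change was 0.51 (SE 0.31, 95% interval -0.18 to 1.19) and the limma adjusted p was 0.151. Without METH 3 the log2 fold change was 0.82 with an adjusted p of 0.0517, which passes the threshold. NSDHL lies on the plus strand of chromosome X (152830967 to 152869729).

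HSD17B7 (ENSG00000132196) reduces the ketone that NSDHL leaves behind and also converts estrone to estradiol. It measured 18.9, 15.3 and 19.4 CPM in PBS 10, 11 and 12, against 34.4, 31.9 and 20.4 CPM in METH 1, 2 and 3. The groups did not overlap, but METH 3 cleared the highest PBS library by less than 1 CPM. HSD17B7 rose from 17.9 ± 2.26 to 28.9 ± 7.48 CPM (SD, n = 3), a log2 fold change of 0.66 (SE 0.25, 95% interval 0.10 to 1.22) with a limma adjusted p of 0.0592. The call did not hold without PBS 11 (0.103), PBS 12 (0.102), METH 1 (0.182) or METH 2 (0.177), the adjusted p of each fit being given in brackets. HSD17B7 is on the plus strand of chromosome 1 (162790702 to 162812817) and has a transcribed pseudogene on chromosome 10, HSD17B7P2, whose reads can be mistaken for its own. HSD17B7P2 read 0.966, 0.530 and 0.408 CPM with PBS and 5.43, 3.86 and 1.03 CPM with METH (log2 fold change 2.06, limma adjusted p 0.0292), in the same order of METH libraries as HSD17B7 and at a far lower level. It was looked up after the values of HSD17B7 were seen.

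SC5D (ENSG00000109929) is the desaturase that makes 7-dehydrocholesterol from lathosterol. It gave 14.1, 10.4 and 6.86 CPM in PBS 10, 11 and 12, and 15.2, 16.8 and 19.7 CPM in METH 1, 2 and 3. The groups did not overlap, although PBS 10 came within about 1 CPM of METH 1, and METH 3 was here the highest of its group. SC5D rose from 10.4 ± 3.63 to 17.2 ± 2.28 CPM (SD, n = 3), a log2 fold change of 0.77 (SE 0.28, 95% interval 0.14 to 1.41) with a limma adjusted p of 0.0563. The adjusted p was 0.141 without PBS 12, 0.106 without METH 1, 0.137 without METH 2 and 0.109 without METH 3, each above the threshold of 0.1 and so without a call. The gene lies on the plus strand of chromosome 11 (121292453 to 121308694).

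DHCR7 (ENSG00000172893) reduces 7-dehydrocholesterol, which is also the precursor of vitamin D, and so ends the route to cholesterol. Its values in PBS 10, 11 and 12 were 63.7, 99.6 and 106 CPM, and in METH 1, 2 and 3 they were 273, 253 and 98.1 CPM. METH 1 and METH 2 were more than double every PBS library, whereas METH 3 fell among the PBS values, below PBS 11 and PBS 12. DHCR7 rose from 89.8 ± 22.9 to 208 ± 95.8 CPM (SD, n = 3), a log2 fold change of 1.11 (SE 0.39, 95% interval 0.23 to 1.99) with a limma adjusted p of 0.0520 and an exact permutation p of 0.3. The adjusted p was 0.150 without METH 1 and 0.153 without METH 2, neither under the threshold. DHCR7 is on the minus strand of chromosome 11 (71428193 to 71452868) and overlaps the antisense model AP002387.1 over 3484 bases.

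**Figure D2:**
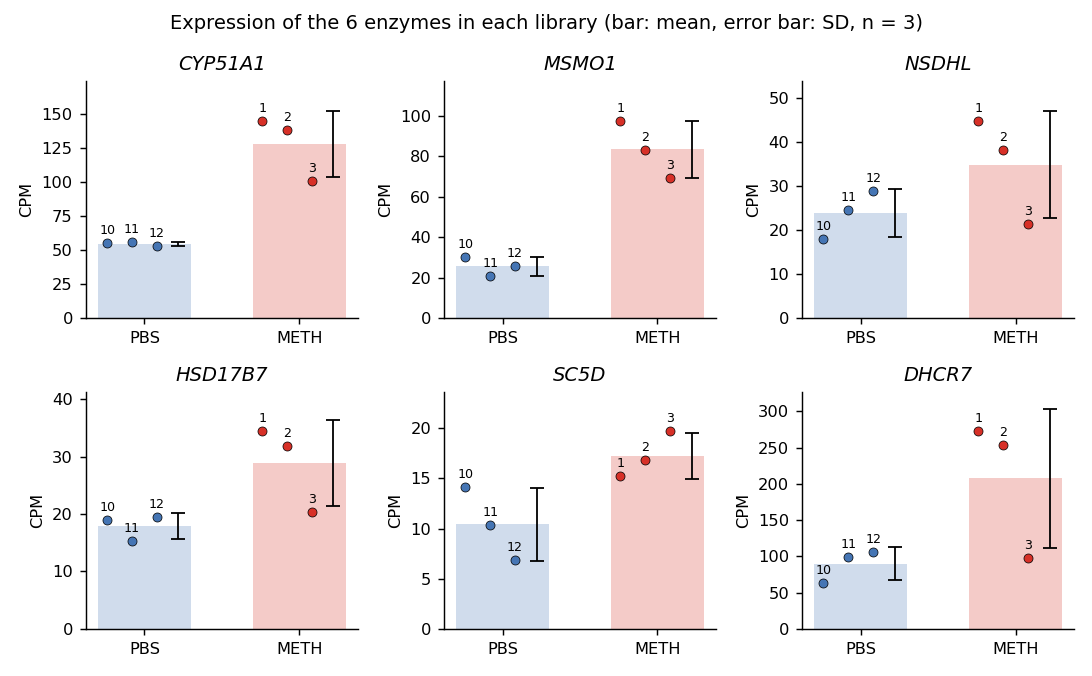
CPM of each enzyme in each library (points, numbered as the columns), with the mean of the group as a bar and the SD of 3 libraries as the error bar. In CYP51A1 and MSMO1 the 3 METH points stand clear of the PBS points, while METH 3 lies among the PBS points for NSDHL and DHCR7.

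Between genes, levels were compared as CPM per kb of exons. With PBS the order was DHCR7 (21.6 ± 5.49), CYP51A1 (15.3 ± 0.397), NSDHL (11.9 ± 2.75), MSMO1 (8.88 ± 1.63), HSD17B7 (3.74 ± 0.474) and SC5D (1.88 ± 0.651) (SD, n = 3). The PBS libraries of DHCR7 overlapped those of CYP51A1, and those of NSDHL overlapped those of MSMO1, while the other neighbours in this order did not overlap. With METH, DHCR7 (50.0 ± 23.0) and CYP51A1 (35.6 ± 6.66) still led and MSMO1 (28.9 ± 4.88) stood above NSDHL (17.5 ± 6.04), with HSD17B7 at 6.04 ± 1.56 and SC5D at 3.10 ± 0.409 CPM per kb. The METH libraries of CYP51A1 overlapped those of DHCR7 and of MSMO1, and the lower neighbours did not overlap. The log2 ratio of MSMO1 to NSDHL, in CPM and so without length, was 0.75, -0.22 and -0.18 in PBS 10, 11 and 12, and 1.12, 1.12 and 1.69 in METH 1, 2 and 3. MSMO1 thus already led NSDHL in PBS 10, and its lead was larger in every METH library.

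Ratios within a library were used to ask whether the enzymes changed by unequal amounts. Of the 15 pairs of enzymes, 6 had METH ratios that did not overlap the PBS ratios. The share over all pairs of genes in the table was not computed, and the 15 pairs reuse the same 6 genes. This count is therefore a description only. With 3 libraries against 3 no pair could pass after adjustment over the 15 pairs (the smallest exact permutation p of 0.1 became 0.25), so the sizes and their SE are given as the result. MSMO1 against NSDHL gave the largest gap, 1.19 on the log2 scale (SE 0.37). The gap of MSMO1 against HSD17B7 was 1.04 (SE 0.14) and that of CYP51A1 against MSMO1 was -0.50 (SE 0.17). CYP51A1 gained on HSD17B7 by 0.54 (SE 0.14) and on NSDHL by 0.70 (SE 0.27), and NSDHL against DHCR7 gave -0.60 (SE 0.17). The log2 changes of CYP51A1 and DHCR7 differed by 0.09, with an SE of 0.39 that leaves a wide range of differences possible.

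The libraries of the METH-treatment group were unequal. Averaged over the 6 enzymes, the log2 change from the PBS mean was 1.24 in METH 1, 1.14 in METH 2 and 0.59 in METH 3, whereas the PBS libraries, from which the mean was taken, lay between -0.03 and 0.02. Single enzymes spread more widely in PBS, from -0.46 to 0.49 in PBS 10, -0.27 to 0.18 in PBS 11 and -0.54 to 0.31 in PBS 12. In METH 3 the enzymes ranged from -0.12 for NSDHL to 1.45 for MSMO1. METH 3 was the lowest METH library in 5 of the 6 enzymes, as it was in 52.3% of all genes and in 65.7% of the 1366 genes called higher. METH 3 and PBS 10 were the deepest libraries of their groups (106.99 and 110.77 M reads), and the genes of the table took 192856 CPM in METH 3 against 229751 to 243343 CPM in the other libraries.

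**Figure D3:**
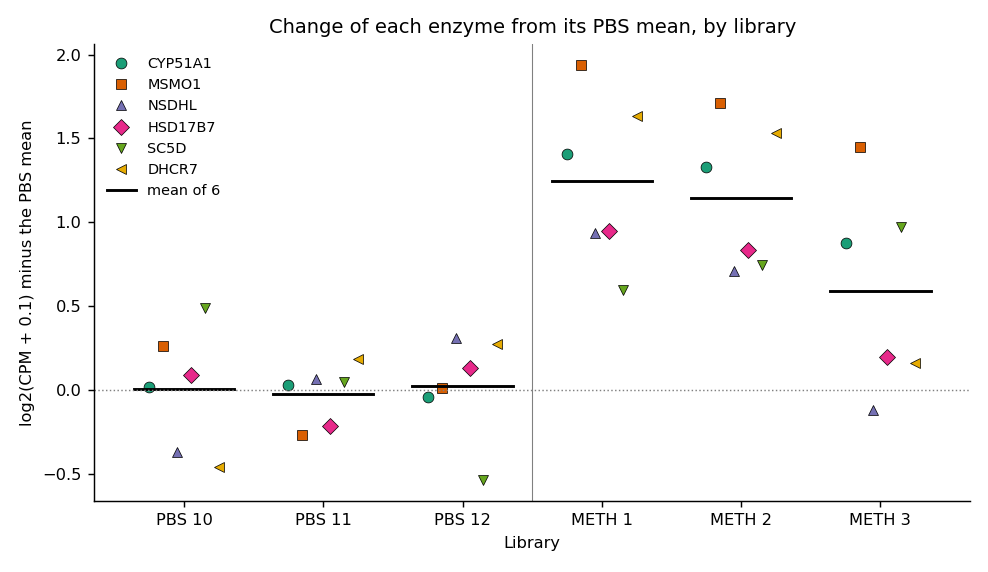
Change of each enzyme in each library from its own PBS mean, on the scale of log2(CPM + 0.1), with a marker for each enzyme and a black line for the mean of the 6. The mean line is near 0 in the PBS libraries, above 1 in METH 1 and METH 2 and at 0.59 in METH 3, where SC5D stands higher than in METH 1 and METH 2.

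Both deep libraries also deviated from their group with the GC content of the gene's longest annotated transcript. Over 4089 genes with a GC value, the median log2 deviation of PBS 10 from the other PBS libraries went from 0.44 in the lowest GC quartile to -0.64 in the highest, and that of METH 3 from the other METH libraries went from 0.14 to -0.46. DHCR7, at 58.3% GC in the highest quartile, deviated by -0.69 in PBS 10 and by -1.42 in METH 3. NSDHL, at 50.5% GC in the third quartile, deviated by -0.56 and -0.95. CYP51A1, MSMO1, HSD17B7 and SC5D (38.1 to 41.7% GC) lay in the lowest quartile. In PBS 10 they deviated by 0.02, 0.39, 0.13 and 0.74 in that order. In METH 3 they deviated by -0.49, -0.38, -0.70 and 0.30, so that 3 of the 4 were below the other METH libraries where the median of their quartile was above. The median log2 change of METH against PBS also differed between the quartiles. It was -0.33 in the lowest, 0.02 in the second, -0.20 in the third and 0.43 in the highest. The part of GC content or depth in the enzymes' values was not tested. In a fit without METH 3 the call was made for 5 of the 6 enzymes, against 32.4% of all genes, with NSDHL gained and SC5D lost. In a fit without PBS 10 and METH 3 the call was made for 6 of 6, against 34.9% of all genes, with log2 fold changes of 1.38 for CYP51A1, 1.95 for MSMO1, 0.64 for NSDHL, 0.94 for HSD17B7, 0.92 for SC5D and 1.35 for DHCR7.

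Of 3 other late enzymes of the same stretch of the pathway, 1 fell and 2 passed no threshold. LBR, a nuclear envelope protein that reduces a ring double bond after CYP51A1, read 19.6, 9.05 and 12.3 CPM with PBS and 5.54, 5.54 and 6.75 CPM with METH, and fell by 1.12 on the log2 scale (adjusted p 0.0270). TM7SF2 catalyses the same reduction as LBR and gave 59.7, 128 and 112 CPM with PBS and 194, 169 and 77.6 CPM with METH (log2 fold change 0.53, adjusted p 0.227). FAXDC2, a relative of MSMO1, stood at 0.23 (adjusted p 0.337). All adjusted p-values of single genes given in this paragraph and in those that follow are from the same limma fit.

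Upstream of lanosterol, 5 of 10 listed genes from acetyl-CoA to squalene epoxide were in the table, of which 4 rose and none fell, with a median log2 fold change of 0.92. Over all genes 33.3% were called higher and 35.8% lower, and 1 of the 4 kept the call with adjustment over the protein-coding genes. IDI1, which isomerises the isoprene unit, read 40.7, 23.8 and 24.9 CPM with PBS and 69.7, 70.1 and 57.4 CPM with METH (log2 fold change 1.18, adjusted p 0.0146). Rises were also called for HMGCS1, which makes HMG-CoA, by 0.92 (0.0440), and for SQLE, the squalene epoxidase, by 0.78 (0.0388). FDFT1, the squalene synthase, stood at 0.56 (0.164). In IDI1, HMGCS1 and SQLE, METH 3 was above all PBS libraries. Of the isoprenoid side branches, 2 of 10 listed genes were in the table and both fell, where 35.8% of all genes did. PDSS1 of the ubiquinone tail fell by 0.68 and FNTB of protein farnesylation by 0.88 on the log2 scale.

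Of the genes that control SREBP, 6 of 11 were in the table, with 4 higher, 0 lower and a median log2 fold change of 0.60, against 33.3% of all genes higher and 35.8% lower. With adjustment over the protein-coding genes 1 of the 4 kept the call. INSIG1, which holds SCAP back in the endoplasmic reticulum and is itself a target of SREBP, read 50.6, 35.7 and 50.9 CPM with PBS and 171, 169 and 99.9 CPM with METH, a log2 fold change of 1.66 (adjusted p 0.00802). SREBF2, the gene of SREBP-2, rose by 0.63 (0.0661). The ubiquitin ligase RNF145 rose by 1.28 (0.0327), while RNF139, another ligase, stood at 0.36 (0.156). Of the uptake and transfer genes, 4 of 16 were in the table, with 3 higher and 1 lower, and 2 of the 3 kept the call with the wider adjustment. The lysosomal sterol carrier NPC2 read 89.2, 161 and 134 CPM with PBS and 342, 390.4 and 296 CPM with METH and rose by 1.45 (0.00986) and the lysosomal lipase LIPA by 0.72 (0.0260), and the HDL receptor SCARB1 fell by 0.74 (0.0565).

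**Figure D4:**
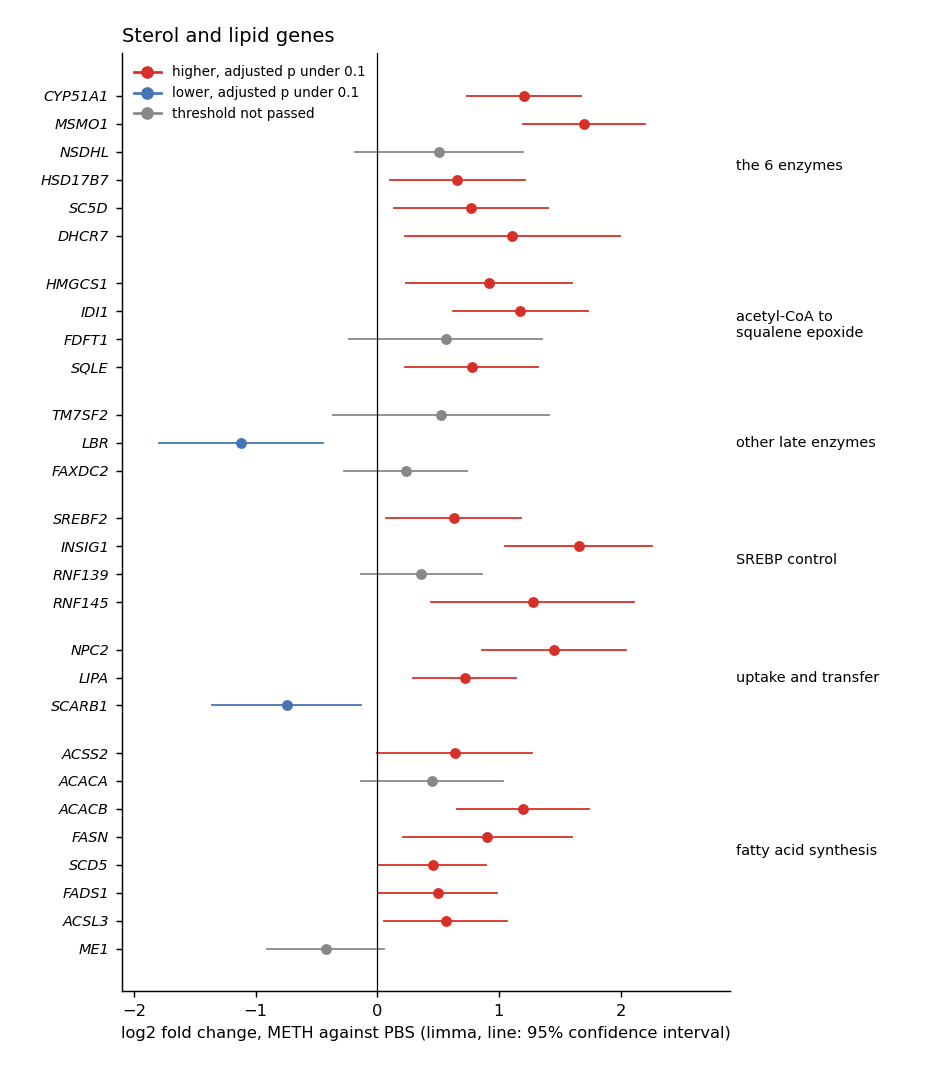
Log2 fold change of METH against PBS (horizontal axis) with its 95% confidence interval (line) for the 6 enzymes and for genes of 5 related lists, coloured by the limma call at an adjusted p under 0.1. MSMO1 (1.70) and INSIG1 (1.66) lie farthest to the right, and LBR (-1.12) and SCARB1 (-0.74) are the blue points to the left of 0.

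Genes of sterol efflux and storage, some of which are driven by the sterol sensor LXR, had 4 of 14 listed in the table, with 3 higher and 1 lower. Over all genes the shares were 33.3% and 35.8%, and 0 of the 3 kept the call with adjustment over the protein-coding genes. APOE, the main lipid carrier of the brain, read 4.22, 14.1 and 10.4 CPM with PBS and 33.4, 35.4 and 14.8 CPM with METH (log2 fold change 1.59, adjusted p 0.0339). ABCG4 rose by 1.03 (0.0522) from 0.590 CPM, NR1H2, which encodes an LXR, rose by 0.77 (0.0870), and the oxysterol hydroxylase CYP7B1 fell by 0.93 (0.0902). In fatty acid synthesis, where SREBP-1 is the usual driver, 6 of the 8 genes in the table rose and none fell, out of 20 listed, with a median of 0.53, and 1 of the 6 kept the call with that adjustment. Over all genes 33.3% rose. ACACB rose by 1.20 (0.0127), FASN by 0.91 (0.0476), ACSS2 by 0.64, ACSL3 by 0.57, FADS1 by 0.50 and SCD5 by 0.46, and ACACA (0.45) and ME1 (-0.42) passed no threshold. POR, which feeds electrons to CYP51A1, rose by 0.78 (0.0616) and CYB5R1 by 0.73 (0.0634), the only genes of 7 listed electron donors in the table.

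Marker lists of cell types were also looked up. The table holds only genes selected as changed, so a marker missing from it can still be expressed. Counts of markers in the table therefore cannot check the labelled cell type. Of 18 markers of noradrenergic neuroblastoma cells, 9 were in the table, none of them at 0 in any library, and their summed level was 1007 to 1084 CPM with PBS and 1019 to 1112 CPM with METH. Of these, 5 fell and 4 rose, where 35.8% of all genes were called lower and 33.3% higher. With adjustment over the protein-coding genes 1 of the 4 that rose kept the call (CHGB, limma adjusted p 0.0997). Of the 5 that fell, only HAND1 kept it (0.0526). GATA2, HAND1 and ELAVL4 fell (by 0.70, 1.30 and 0.69 on the log2 scale), and CHGB, SCG2, SYT1 and TBX2 rose (by 0.92, 0.83, 0.72 and 0.50). Of 15 markers of the mesenchymal, substrate-adherent cells that SH-SY5Y cultures can hold, 5 were in the table, with a summed level of 480 to 762 CPM with PBS and 834 to 1192 CPM with METH. VIM, SNAI2, LUM and DCN rose (by 0.89, 0.97, 1.31 and 0.83), and TWIST1 stood at 0.40 (adjusted p 0.182). With adjustment over the protein-coding genes 1 of these 4 rises kept the call, and 33.3% of all genes were called higher in the main fit. The mesenchymal sum, mostly VIM and TWIST1, was like the mean of the enzymes in the split of the groups and in METH 3 only. It was lower in every PBS library than in any METH library and, within METH, lowest in METH 3. VIM and DCN followed this pattern. In PBS 10, 11 and 12 the sum was 480, 762 and 700 CPM, while the log2 change of the enzyme mean stayed between -0.03 and 0.02. In METH 1 and METH 2 the sum was 1151 and 1192 CPM, and the enzyme mean went the other way (1.24 and 1.14). TWIST1 in METH 3 (256 CPM) lay below PBS 11 and PBS 12 (268 and 297 CPM). SNAI2 was highest in METH 3 (4.54 CPM), and within METH LUM was lowest in METH 1 (13.8 CPM). The part of these markers in the enzymes' change was not tested. Of 7 glial and Schwann cell markers 1 was in the table, ERBB3, at 0.268 to 0.460 CPM with PBS and 0.537 to 0.785 CPM with METH.

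Genes whose profile came closest to the mean of the 6 enzymes were ranked by the root mean square difference of their log2 changes over the 6 libraries, among 3373 genes. The 5 nearest were RPL23AP49 (0.12), HS3ST2 (0.13), RNA5SP215 (0.14), RARG (0.14) and TLE1 (0.14), where RPL23AP49 and RNA5SP215 are named as pseudogenes. HS3ST2, a heparan sulfate sulfotransferase, read 16.2, 17.0 and 20.6 CPM with PBS and 40.0, 45.6 and 27.2 CPM with METH. RARG, a retinoic acid receptor, read 27.3, 25.2 and 31.0 CPM with PBS and 62.7, 50.6 and 42.0 CPM with METH. No listed lipid gene was among the nearest 100, FASN being at rank 116, SQLE at 156 and IDI1 at 234. Of the 6 enzymes, CYP51A1 lay nearest to the mean of the other 5 (0.19), followed by HSD17B7 (0.31), DHCR7 (0.44), NSDHL (0.49), SC5D (0.55) and MSMO1 (0.63).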

How the data were processed

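Libraries of total RNA, made with a SMARTER mRNA-Seq kit per the labels, gave 3 METH and 3 PBS samples of SH-SY5Y cells. Per library, the deposited table gives a CPM value for 4101 genes, which the authors headed FPKM. In each column 99.94 to 100% of values below 5 CPM were whole multiples of 1 read (tolerance 0.00051 CPM), which gave the library denominators and the reads. The tests had been planned for normalized values of either unit. The table also holds the mean of each group and 6 columns of the authors' own comparison (fold change, log2 fold change, p-values, significance, direction), which were not used except to count the genes under 0.1 by their p-values. All 4101 genes are under it by the unadjusted p and only some by the adjusted p, which is the one that the study's text names. The aligner, the counting tool and the genome build are not given in the sources used here.

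The groups were compared by a linear model with moderated variances and a mean-variance trend (limma 3.58.1 in R 4.3.3) on log2(CPM + 0.1). P-values were adjusted over the table by the Benjamini-Hochberg method, and the threshold was 0.1. Fold changes are on that scale, which understates changes of low genes. Exact permutation tests were two-sided. edgeR 4.0.16 (quasi-likelihood test) and DESeq2 1.42.0 were run on the recovered reads. Scripts were tested on simulated data. The members and the lists were chosen with earlier results of these data known. The genes named are the 6 enzymes, the listed genes in the table (some of which are not reported here), and the 5 nearest profiles among genes whose means reached 1 CPM in both groups. HSD17B7P2 was an exception. The fit without PBS 10 and METH 3 and the look at GC content were chosen after seeing the data. Positions and exon lengths are from GENCODE 29 (4093 of 4101 identifiers matched) and promoters from RefSeq. Motifs were counted on both strands. Other steps ran in Python 3.11.15 with pandas 2.3.3, numpy 2.4.6, statsmodels 0.14.6 and scipy 1.17.1, and plots were drawn with matplotlib 3.10.9.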

Additional observations from a re-analysis of the deposited data

How the results depend on the processing

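No paired analysis was possible because the columns of the groups share no replicate number (10 to 12 for PBS, 1 to 3 for METH). Over 16 alternatives no log2 fold change of an enzyme changed sign. CYP51A1 (1.10 to 1.38) and MSMO1 (1.56 to 1.95) kept the call in all 16, HSD17B7 and SC5D lost it in 6 each and DHCR7 in 4, and NSDHL (0.29 to 0.82) gained it in 2, both without METH 3. The count of 5 enzymes higher was the same with 0.01 or 1 CPM added, a minimum mean of 1 CPM, no trend, median ratio scaling, edgeR and DESeq2. Adjustment over 19969 protein-coding genes left 2 enzymes higher (219 genes of the table higher and 191 lower, 7 and 1 of the other listed genes), and a threshold of 0.05 left 2 (696 and 783 genes of the table, 19 listed genes higher). With each library left out in turn, 2 to 5 enzymes were called higher: 2 without METH 1 or METH 2, 3 without PBS 12 and 4 without PBS 11. The counts then ranged from 412 to 1551 higher and 563 to 1368 lower in the table, and from 11 to 31 higher and 3 to 10 lower among the listed genes. The gap of MSMO1 against NSDHL, the largest with all libraries, ranged from 1.00 to 1.51. A left-out library leaves 2 in its group, and fewer samples alone lower the power. For the listed genes, 640 of 797 alternative values stayed on the side of the threshold where they had been, called or not, 144 lost a call, 13 gained one and 0 changed sign. Levels per kb of the longest transcript gave the same order of the enzymes in both groups. These comparisons are limited by 3 libraries a group and by a table selected on the same libraries.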
